A study of Mus musculus with 12 samples.

Results

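Transcript levels were compared between the stromal vascular cells (SVCs) of inguinal adipose tissue (IAT) and those of epididymal adipose tissue (EAT). SVCs are the mixture of non-adipocyte cells that collagenase I releases from fat: fibroblasts and progenitors, endothelium, mural cells, leukocytes and, around a visceral depot, mesothelium. The comparison used 3 IAT and 3 EAT libraries, chosen by their labels alone, which is 6 of the 12 libraries of the study, the other 6 being adipocytes of the same depots. Every library is labelled as male C57BL/6J, 18 weeks of age, fed normal chow, and the labels name no treatment, so the 2 groups differ in their labels by depot only. Whether each library is 1 mouse or a pool is not stated, so each p-value speaks only of the spread among these 6 libraries, which may be technical.

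EAT is a visceral depot that lies in the abdominal cavity beside the testis and epididymis and is covered by mesothelium, the flat epithelium of serous surfaces. IAT is a subcutaneous depot of the flank and hind limb; it lies against skin and body wall muscle and is crossed by nerves, and a lymph node lies within it. Adipose fibroblasts of different depots keep transcription factors of their embryonic position, and fibroblasts include DPP4+ interstitial progenitors, more committed preadipocytes and F3+ stromal regulators (Aregs).

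Among the largest depot differences were Upk3b (higher in EAT; the mesothelial protein uroplakin 3B), Tcf21 (higher in EAT; a basic helix-loop-helix factor of visceral mesenchyme) and Mmp3 (higher in IAT; the matrix protease stromelysin 1). The upstream sequences of these 3 genes are shown because their levels differed so widely between the depots. They are the 250 bases before the annotated start (RefSeq, GRCm38.p6), read 5′ to 3′ on the gene's strand. Capitals mark matches to the motifs searched. Of 880 listed genes, 618 had such a window.

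Upk3b, chr5:136038246-136038495, plus strand: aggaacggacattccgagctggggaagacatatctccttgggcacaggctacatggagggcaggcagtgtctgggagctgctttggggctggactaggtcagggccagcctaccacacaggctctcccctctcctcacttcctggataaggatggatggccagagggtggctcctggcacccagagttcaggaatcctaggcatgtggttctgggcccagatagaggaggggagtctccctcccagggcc

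Tcf21, chr10:22820144-22820393, minus strand: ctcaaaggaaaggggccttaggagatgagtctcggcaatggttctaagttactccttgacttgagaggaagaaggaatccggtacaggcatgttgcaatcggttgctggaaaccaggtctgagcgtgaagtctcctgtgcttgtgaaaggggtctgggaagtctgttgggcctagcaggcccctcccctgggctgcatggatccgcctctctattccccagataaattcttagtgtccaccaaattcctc

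Mmp3, chr9:7445572-7445821, plus strand: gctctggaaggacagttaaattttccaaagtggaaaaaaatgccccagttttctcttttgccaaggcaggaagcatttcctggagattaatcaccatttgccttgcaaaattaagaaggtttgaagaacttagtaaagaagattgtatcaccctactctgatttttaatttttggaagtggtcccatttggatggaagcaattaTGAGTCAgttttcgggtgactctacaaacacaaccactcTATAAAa

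Both strands were searched for TATAAA (the TATA box), for CCAAT (the CAAT box), for GGGCGG (the GC box), for TGAGTCA (an AP-1 site) and for CAGCTG (an E-box), and no match overlapped another in these windows. Mmp3 held TGAGTCA, with its first base at -46 from the annotated start, and TATAAA at -7. Of all 32536 windows, 4.45% held TGAGTCA and 12.3% held TATAAA. The other motifs were in 33.8% (CCAAT), 33.0% (GGGCGG) and 13.1% (CAGCTG) of windows, and none of the 5 was in the Upk3b or Tcf21 window. A match describes the letters only.

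Values are FPKM (fragments per kilobase of transcript, scaled to the mapped fragments of the library) as the authors deposited them. Differences are IAT minus EAT on the log2(FPKM + 1) scale with their standard error (SE) and limma's Benjamini-Hochberg adjusted p, called when under 0.05; this scale understates the change of low genes. Of 24890 features, 12608 reached 1 FPKM in at least 3 of the 6 libraries and were tested. A gene under 1 FPKM in every library of 1 depot could pass this filter only through the other depot. Its direction and lack of overlap were then set by the filter. The depth of each library, estimated from the FPKM confidence bounds, was 14.8 to 24.7 M fragments. Pearson's r over genes, which are not independent, was 0.992 to 0.993 within a depot and 0.938 to 0.950 between depots. The first principal component took 84.2% of the variance and separated the depots.

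Of the tested features, 46.5% were called: 2035 were higher in IAT (16.1%) and 3833 lower (30.4%), with a median difference of -0.06 over all of them. The share of higher features among those called, 34.7%, moved with scaling. It was 46.7% with median-of-ratios scaling, 49.6% with quantile scaling and 23.1% with rescaling to a constant library sum (TPM), where the median was -0.16. When each library was divided by the geometric mean of 17 fibroblast markers, giving values per fibroblast RNA, it was 16.6% and the median -0.21. Of these 17 markers, 7 were themselves called higher and 7 lower in IAT, so their mean is not a fixed measure of fibroblast RNA. Lower features were 49.5% and higher features 9.85% of those tested per fibroblast RNA. With a test against a 2-fold difference, 1.51% of features were higher and 1.80% lower. A difference in these bulk fractions can come from fewer cells of a type or from less of the RNA per cell, and the 2 cannot be told apart.

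**Figure D1:**
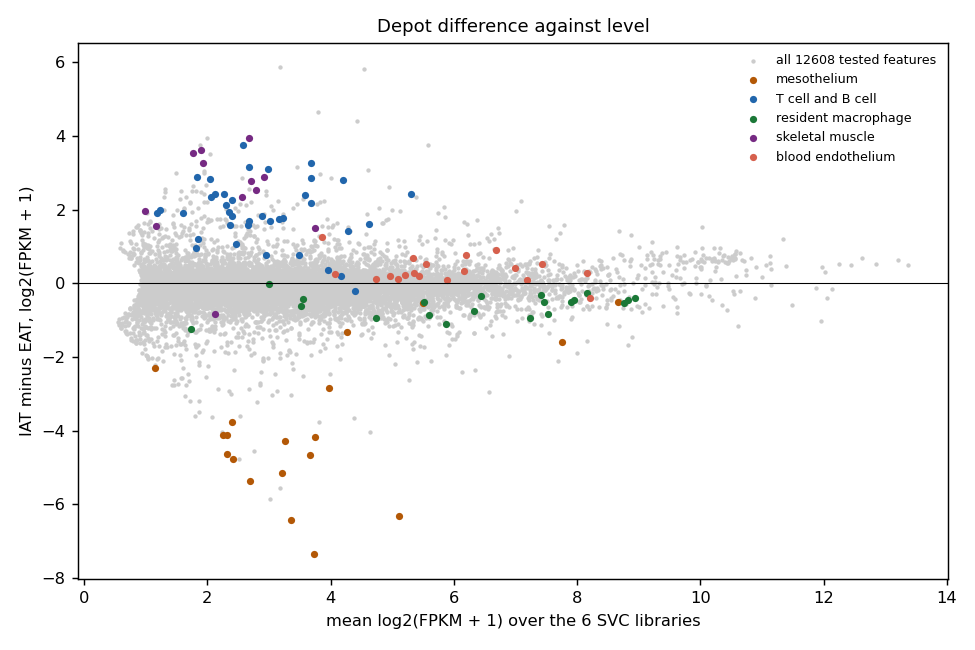
Difference between depots (IAT minus EAT, log2(FPKM + 1), vertical axis) against the mean level over the 6 SVC libraries (horizontal axis), with all 12608 tested features in grey and 5 groups of marker genes in colour. The mesothelial markers lie below 0, down to -7.36, and most T cell, B cell and skeletal muscle markers lie above 0.

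Mesothelial genes showed the largest differences. All 19 markers measured were lower in IAT, with a median of -4.17 against -0.06 for all features. Upk3b was at 159, 195 and 159 FPKM in the EAT libraries and at 0.0373, 0.0456 and 0.0351 FPKM in the IAT libraries (difference -7.36 ± 0.0875 SE, adjusted p = 1.12e-11). Msln, which encodes the surface protein mesothelin, was at 91.0, 96.3 and 93.6 FPKM in EAT and at 0.0537, 0.131 and 0.118 FPKM in IAT (difference -6.43 ± 0.0682, adjusted p = 1.12e-11). Every EAT library stood above every IAT library for both genes. Both were under 1 FPKM throughout IAT, so the filter set this. Of all tested features, 55.7% had no overlap in 1 direction or the other (20.1% higher and 35.7% lower in IAT). Wt1, the Wilms tumour transcription factor of mesothelium and visceral mesenchyme, was at 22.6, 23.5 and 25.2 FPKM in EAT and was listed at 0 in all IAT libraries, as was the epithelial factor Bnc1, at 3.65, 4.28 and 3.94 FPKM in EAT.

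Other surface and keratin genes of mesothelium followed the same split. Upk1b (uroplakin 1B) had a mean of 40.4 FPKM in EAT and was at 0, 0 and 0.0205 FPKM in IAT. Slpi, a secreted protease inhibitor, was 107-fold higher in EAT, at 308 ± 25.5 against 2.88 ± 0.26 FPKM (SD, n = 3). The keratins Krt19 (63.1 ± 10.1 against 1.53 ± 0.157 FPKM) and Krt8 (19.8 ± 1.75 against 0.198 ± 0.185 FPKM) were 41.2-fold and 100.4-fold higher in EAT. Lrrn4, Nkain4 and Gpm6a, membrane proteins used as mesothelial markers, were 931-fold, 100.3-fold and 35.3-fold higher. The summed level of the list was 1804 to 2044 FPKM in EAT and 497 to 559 FPKM in IAT. Most of what remained in IAT came from the more widely expressed members, since Wt1 and Bnc1 were listed at 0 there and Upk3b, Msln and Lrrn4 had means of 0.0393, 0.101 and 0.0289 FPKM.

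**Figure D2:**
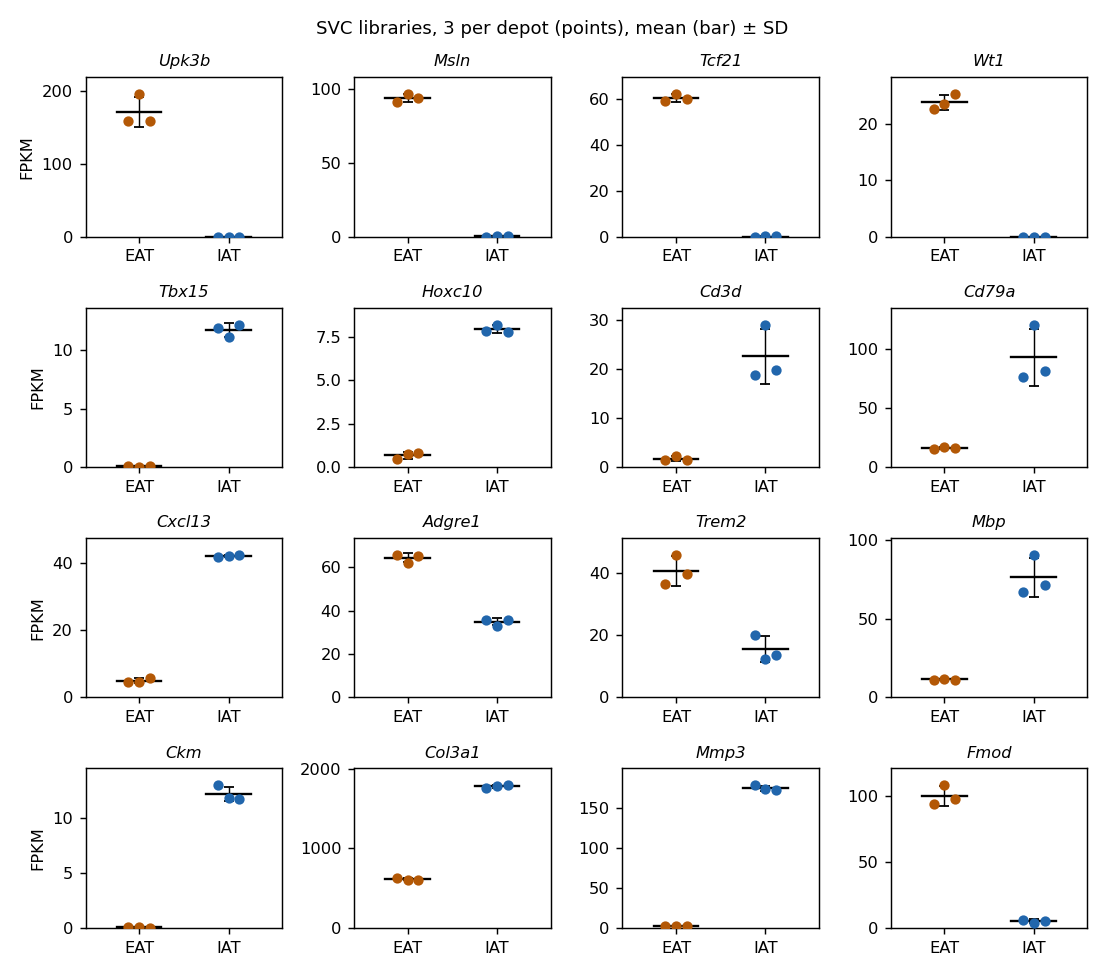
FPKM of 16 genes in each SVC library (points, 3 per depot), with the mean (bar) and SD (whiskers); each vertical axis starts at 0. Libraries of the depots do not overlap for any of the 16 genes.

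Lymphocyte genes were higher in IAT. Among 20 T cell markers, 19 were higher and none lower (Cd2 was not called; 20 were higher with the replicate number as a block), with a median of 2.06. Cd3d, a chain of the T cell receptor complex, was at 1.42, 2.23 and 1.48 FPKM in EAT and at 18.9, 29.1 and 19.9 FPKM in IAT (difference 3.11 ± 0.161, adjusted p = 2.76e-07). Cd8b1, the beta chain of the CD8 coreceptor, was at 0.760, 0.671 and 0.482 FPKM in EAT and at 16.7, 28.4 and 19.4 FPKM in IAT (difference 3.75 ± 0.161, adjusted p = 8.13e-08). The IAT libraries lay above all EAT libraries for both genes, which the filter set for Cd8b1, under 1 FPKM throughout EAT. IAT replicate 2 was the highest for both genes. Tcf7, a factor of naive and memory T cells, rose 12.5-fold (3.17 ± 0.106 to 39.5 ± 9.38 FPKM). Satb1, a chromatin organizer abundant in T cells, rose 12.0-fold (2.67 ± 0.166 to 32.0 ± 4.64 FPKM).

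Of 18 B cell markers, 16 were higher in IAT and 1, Blnk, was lower (21.8 ± 0.884 to 18.5 ± 1.20 FPKM, adjusted p = 0.0272). No B cell marker was called lower with median-of-ratios or quantile scaling, with all 12 libraries in the fit, or without EAT replicate 3, IAT replicate 1 or IAT replicate 3. Cd79a, part of the B cell receptor, was at 15.5, 16.7 and 16.1 FPKM in EAT and at 76.7, 121 and 81.8 FPKM in IAT (difference 2.43 ± 0.144, adjusted p = 6.41e-07). Fcer2a, the low-affinity IgE receptor of follicular B cells, rose 16.1-fold. Of 9 plasma cell markers, 1 was higher (Irf4, also a T cell and dendritic cell factor) and 5 were lower, or 2 with quantile scaling. Jchain, the joining chain of secreted IgA and IgM, was at 48.7, 40.8 and 54.4 FPKM in EAT and at 20.9, 21.1 and 20 FPKM in IAT (difference -1.17 ± 0.0973, adjusted p = 7.42e-06), and the EAT libraries did not overlap those of IAT.

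Genes of lymph node stroma and lymphocyte homing moved with the lymphocyte markers: 11 of 16 tested were higher in IAT and 4 lower. Cxcl13, the chemokine that draws B cells into follicles, was at 4.65, 4.52 and 5.81 FPKM in EAT and at 41.9, 42.0 and 42.4 FPKM in IAT (difference 2.85 ± 0.0868, adjusted p = 6.99e-09). Glycam1, a sulphated mucin of high endothelial venules, was at 0, 0.0553 and 0 FPKM in EAT and at 6.59, 29.7 and 15.4 FPKM in IAT, a wide spread within IAT. Ccr7, the receptor that guides cells to lymph nodes, rose 5.42-fold (17.6 ± 1.29 to 95.5 ± 21.0 FPKM). Other genes of these venules did not follow: Chst4, a sulphotransferase, was 34.5-fold lower in IAT (7.26 ± 0.217 to 0.211 ± 0.0212 FPKM), and Madcam1, with means of 0.0665 and 0.285 FPKM, was not tested. The lower count was 2 without EAT replicate 3, IAT replicate 1 or IAT replicate 3 and with median-of-ratios scaling, and 1 with quantile scaling.

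The T cell homing chemokine Ccl21a, which has near-identical copies, differed within groups, at 0.237, 56.8 and 37.1 FPKM in EAT and 7.93, 24.9 and 4.97 FPKM in IAT (adjusted p = 0.848). Without EAT replicate 1 it was called lower in IAT, at -2.08 (adjusted p = 0.00562). The summed T cell list was 63.9 to 64.2 FPKM in EAT and 283 to 439 FPKM in IAT, and the summed lymph node list 162 to 217 and 377 to 524 FPKM. IAT replicate 2 was highest in both. With any 1 of the 6 libraries left out, 19 to 20 T cell members were higher and none lower. The labels do not say whether the inguinal lymph node was removed before digestion, and its part in the lymphocyte values was not tested.

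Cytotoxic and innate lymphoid genes split. Of 13 natural killer (NK) and cytotoxic lymphocyte markers tested, 12 were higher in IAT and none lower, with a median of 0.66. Nkg7, a granule protein, was at 7.44 ± 0.720 FPKM in EAT and 27.3 ± 4.02 FPKM in IAT. Ncr1, the NK receptor NKp46, was low in both, at 0.533 ± 0.170 and 1.25 ± 0.124 FPKM (difference 0.56 ± 0.093, adjusted p = 0.000799).

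A list that pools genes of regulatory T cells and of group 2 innate lymphoid cells (ILC2s) went mostly the other way, with 10 of 15 lower in IAT and 4 higher. The 4 were Ctla4, Tnfrsf4, Icos and Pparg, the last also counted as a preadipocyte gene, so the count does not speak for either cell type alone. Il5, the eosinophil growth factor made by ILC2s, was at 2.71, 2.36 and 2.70 FPKM in EAT and at 0.281, 0.250 and 0.265 FPKM in IAT (difference -1.5 ± 0.0739, adjusted p = 2.07e-07). Il1rl1, the receptor for interleukin 33, fell from 9.32 ± 0.679 to 2.98 ± 0.120 FPKM, and Areg, the growth factor amphiregulin, from 12.3 ± 0.753 to 3.93 ± 0.188 FPKM. All EAT libraries were above all IAT libraries for these 3 genes, which the filter set for Il5, under 1 FPKM throughout IAT. Ctla4, a checkpoint receptor, was higher in IAT (4.27 ± 0.319 to 10.7 ± 1.96 FPKM), and the regulatory T cell factor Foxp3 was under 1 FPKM in every library and was not tested.

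Macrophage genes were lower in IAT. Of 20 resident macrophage markers, 18 were lower and none higher, with a median of -0.51. Adgre1, which encodes the antigen F4/80, was at 65.7, 62.1 and 65.5 FPKM in EAT and at 35.7, 33.0 and 35.9 FPKM in IAT (difference -0.87 ± 0.0665, adjusted p = 4.14e-06). Csf1r, the receptor on which macrophages depend for survival, was at 209 ± 10.6 and 107 ± 3.34 FPKM, and Lyve1, a hyaluronan receptor also found on lymphatic vessels, at 85.4 ± 6.99 and 39.1 ± 3.25 FPKM. Differences in the list reached -1.23, and none of the 20 passed the test against a 2-fold difference.

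The lipid-associated macrophage list was mixed, with 8 of 15 lower and 5 higher. Trem2, its lipid-sensing receptor, was at 36.6, 45.9 and 39.7 FPKM in EAT and at 20.3, 12.5 and 13.7 FPKM in IAT (difference -1.36 ± 0.155, adjusted p = 6.38e-05), and no EAT library overlapped those of IAT. Itgax, the integrin CD11c, fell from 12.7 ± 0.860 to 5.16 ± 1.53 FPKM. The 5 members that rose were Ctsk (65.1 ± 3.53 to 169.6 ± 5.55 FPKM), a collagen-cleaving protease, Lpl (145 ± 10.3 to 217 ± 11.7 FPKM), lipoprotein lipase, Gpnmb (27.5 ± 0.775 to 42.3 ± 4.92 FPKM), a glycoprotein of these macrophages, Fabp5 and Cd63. Fibroblasts also make Ctsk, and preadipocytes Lpl.

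Monocyte markers were 6 higher and 3 lower of 10, but 4 and 5 with rescaling to TPM and 4 each per fibroblast RNA. Among them Plac8 rose 4.30-fold (27.0 ± 2.51 to 116 ± 13.5 FPKM), while Ccr2, the receptor for the monocyte chemokine CCL2, fell from 25.5 ± 2.93 to 11.6 ± 0.761 FPKM. Dendritic cell markers were 4 higher and 4 lower of 15, though 6 and 4 with median-of-ratios or quantile scaling, 4 and 5 with TPM and 4 and 7 per fibroblast RNA. Of 13 genes for antigen presentation by major histocompatibility complex (MHC) class II, 7 were lower (4 without EAT replicate 2), among them the costimulatory ligands Cd80 (8.14 ± 0.556 to 2.32 ± 0.297 FPKM) and Cd86 (23.2 ± 2.34 to 12.6 ± 0.557 FPKM). The 3 that rose, H2-Ob, H2-Oa and H2-Eb2, include both chains of H2-O, which B cells make; H2-Ob went from 5.49 ± 0.513 to 28.4 ± 5.23 FPKM.

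Neutrophil and mast cell genes were lower in IAT in 15 of 16 cases. With median-of-ratios or quantile scaling, 13 were lower and 1 higher. A member was also called higher with array weights, with the replicate block and without EAT replicate 2. The list pools both cell types, and only neutrophil genes are named here. S100a8, an alarmin of neutrophils, was at 61.7, 43.3 and 53.0 FPKM in EAT and at 20.8, 23.8 and 22.2 FPKM in IAT (difference -1.19 ± 0.116, adjusted p = 2.10e-05). The granule genes Ngp (7.32, 4.32 and 6.60 FPKM in EAT) and Camp (3.69, 1.96 and 3.66 FPKM) were listed at 0 in 2 of 3 IAT libraries each. Haemoglobin and other red cell genes were 8 higher and none lower of 9, with differences of 0.43 to 0.82 over the 9. Per fibroblast RNA 4 were called, leaving out 1 library gave 4 to 9, and 1 copy of Hba-a1 turned to -0.06 with quantile scaling. The globin genes have near-identical copies. Ptprc, which encodes the pan-leukocyte antigen CD45, was at 41.3 ± 2.68 FPKM in EAT and 73.2 ± 10.1 FPKM in IAT (difference 0.80 ± 0.103, adjusted p = 0.000137).

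**Figure D3:**
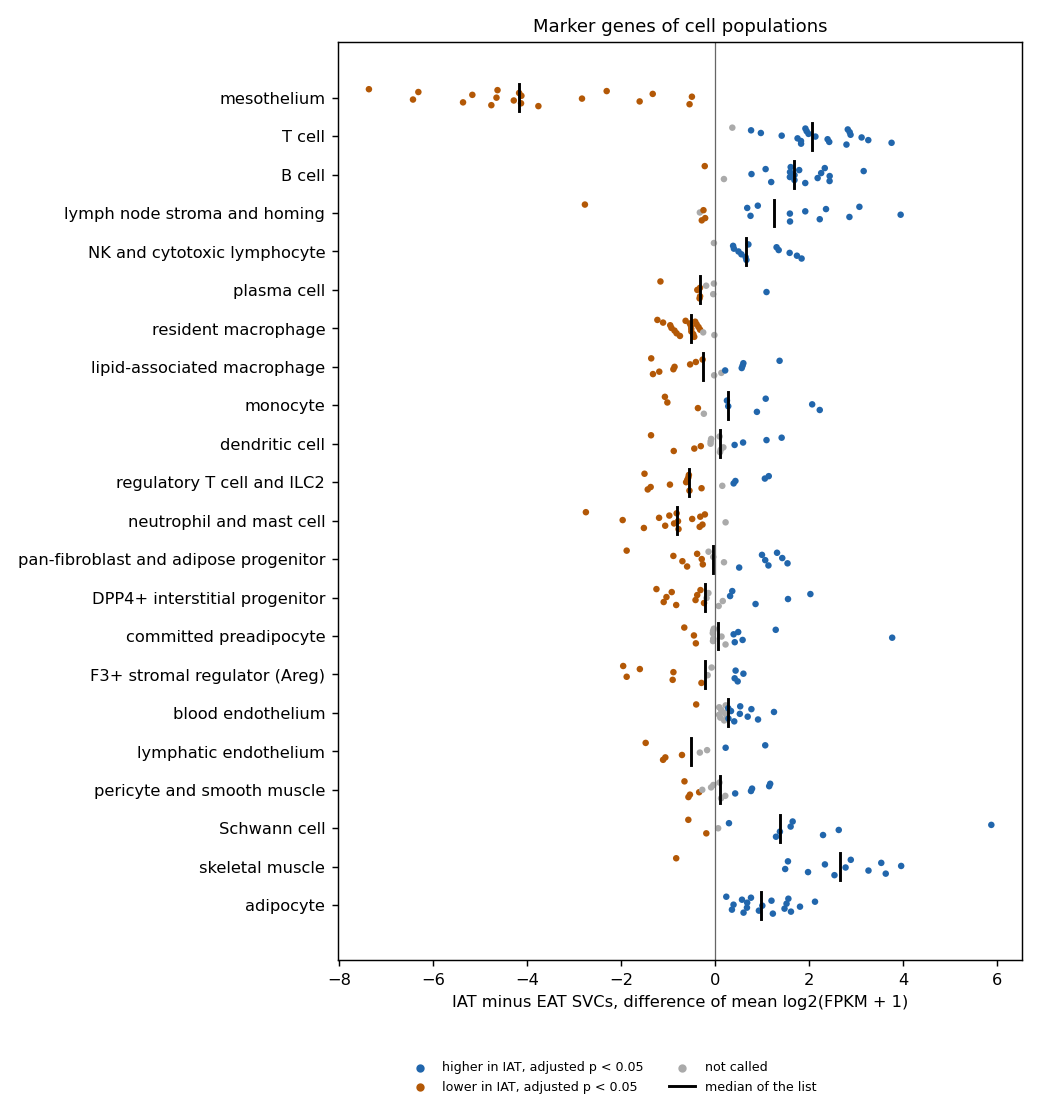
Depot difference (IAT minus EAT, log2(FPKM + 1), horizontal axis) of each tested marker gene (points, coloured by call) in 22 lists of cell populations, with the list median (black bar). All 19 mesothelial markers lie left of 0, 19 of 20 T cell markers are called right of it, and the fibroblast lists spread to both sides.

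Fibroblast markers moved in both directions. Of 17 general fibroblast and progenitor markers, 7 were higher and 7 lower in IAT, with a median of -0.04. The split was 7 and 8 with TPM, 7 and 5 with median-of-ratios or quantile scaling and 7 and 9 per fibroblast RNA. These 17 markers also set the per fibroblast scaling, so that last split is not independent of it. Pdgfra, the receptor that defines adipose progenitors, was at 43.5, 43.2 and 42.0 FPKM in EAT and at 33.1, 36.1 and 37.6 FPKM in IAT (difference -0.26 ± 0.0689, adjusted p = 0.0106), though it was not called with median-of-ratios scaling (adjusted p = 0.0501) or quantile scaling (adjusted p = 0.144). Col3a1 was at 628, 607 and 599 FPKM in EAT and at 1756, 1786 and 1787 FPKM in IAT (difference 1.54 ± 0.0765, adjusted p = 2.20e-07). Mgp, matrix Gla protein, an inhibitor of calcification, was at 474, 498 and 493 FPKM in EAT and at 150.5, 127 and 119.6 FPKM in IAT (difference -1.88 ± 0.0915, adjusted p = 1.90e-07). The libraries did not overlap for any of these 3 genes. The surface marker Thy1 and the secreted factor Serpinf1 rose with Col3a1, 2.11-fold and 2.49-fold.

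Markers of DPP4+ interstitial progenitors were 5 higher and 9 lower of 18. Dpp4 itself was at 28.3, 27.0 and 28.5 FPKM in EAT and at 23.0, 22.5 and 25 FPKM in IAT (difference -0.24 ± 0.0683, adjusted p = 0.0161). Its call was lost with both median-of-ratios and quantile scaling and without EAT replicate 1 (adjusted p = 0.0643), EAT replicate 3 (0.0561) or IAT replicate 2 (0.0576). Pi16, a secreted peptidase inhibitor of the same cells, rose instead, from 104, 118 and 103 FPKM to 352, 309.7 and 293 FPKM (difference 1.55 ± 0.0897, adjusted p = 5.51e-07). The Wnt ligand Wnt2 rose 9.75-fold from a low level (0.539 ± 0.143 FPKM), while Cd55, a complement regulator, Fn1 (fibronectin) and the guidance ligand Sema3c fell.

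Committed preadipocyte markers were 6 higher and 3 lower of 16, and 6 each per fibroblast RNA. Cxcl14, a chemokine, was at 11.7, 13.1 and 11.2 FPKM in EAT and at 199, 160.4 and 168 FPKM in IAT (difference 3.76 ± 0.0928, adjusted p = 1.85e-09). Pparg, the master regulator of fat cell formation, rose from 35.4 ± 1.62 to 46.7 ± 1.35 FPKM, and Dlk1, a preadipocyte surface protein, from 0.913 ± 0.153 to 3.67 ± 0.480 FPKM. Icam1, the adhesion molecule that defines these cells, was at 301, 298 and 290.1 FPKM in EAT and 321, 257 and 287 FPKM in IAT, with overlap (adjusted p = 0.706). Aregs, which restrain adipogenesis, had 6 of 12 markers lower and 4 higher; F3, tissue factor, was at 62.0, 58.9 and 64.6 FPKM in EAT and at 28.1, 38.6 and 32.9 FPKM in IAT (difference -0.89 ± 0.105, adjusted p = 8.02e-05). Vit, Fmo2 and Gdf10 of this list fell too, by 1.96, 1.6 and 0.91 on the log2 scale.

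Of 19 blood endothelial markers, 10 were higher in IAT and 1 lower, with a median of 0.28. Pecam1, the endothelial adhesion molecule CD31, was at 149, 134 and 143 FPKM in EAT and at 227, 183 and 208 FPKM in IAT (difference 0.53 ± 0.0901, adjusted p = 0.000869). Vwf, von Willebrand factor, rose 2.56-fold and Egfl7 1.89-fold, while Cdh5, Kdr and 6 other members were not called. Pericyte and smooth muscle markers were 5 higher and 4 lower of 15, and 5 and 6 per fibroblast RNA. Of the contractile genes, Acta2 (smooth muscle actin) was at 37.2, 38.9 and 36.8 FPKM in EAT and at 96.1, 82.7 and 79.5 FPKM in IAT (difference 1.17 ± 0.0813, adjusted p = 2.01e-06). The potassium channel gene Kcnj8 of pericytes fell from 36.5 ± 1.44 to 23.0 ± 3.48 FPKM.

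Rgs5, which marks pericytes, was at 149.7, 109 and 122 FPKM in EAT and at 92.0, 61.3 and 107 FPKM in IAT (adjusted p = 0.0279). It was not called with all 12 libraries in the fit (0.243), with no filter (0.101), with median-of-ratios (0.0508) or quantile scaling (0.0598), or without EAT replicate 1 (0.0879), EAT replicate 3 (0.0565) or IAT replicate 2 (0.0641). Lymphatic endothelial markers were 2 higher and 4 lower of 8; 1 was higher with TPM, per fibroblast RNA, with other filters, with the replicate block, and without EAT replicate 1, EAT replicate 3, IAT replicate 1 or IAT replicate 2. Pdpn (podoplanin), which mesothelium and fibroblasts also make, fell from 61.1 ± 2.83 to 21.3 ± 1.44 FPKM, and the defining factor Prox1 was under 0.4 FPKM in all libraries and was not tested.

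Genes of neighbouring tissues were found in both depots. Myelin and Schwann cell genes were higher in IAT in 8 of 11 cases and lower in 2. Only 1 was lower with median-of-ratios or quantile scaling, with all 12 libraries, without the variance trend, with the replicate block, or when any library but IAT replicate 2 was left out. Mbp, myelin basic protein, was at 11.3, 11.7 and 11.3 FPKM in EAT and at 67.1, 90.5 and 71.4 FPKM in IAT (difference 2.63 ± 0.103, adjusted p = 4.6e-08), with no overlap between the depots. Sox10, the transcription factor of Schwann cells, was at 0.0294 ± 0.0117 FPKM in EAT and 1.67 ± 0.181 FPKM in IAT.

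Fast skeletal muscle genes were higher in IAT in 11 of 12 cases, and the other, Actn3, was called lower (difference -0.83). Ckm, muscle creatine kinase, was at 0.109, 0.0814 and 0 FPKM in EAT and at 12.9, 11.8 and 11.7 FPKM in IAT. Acta1, skeletal actin, rose 39.1-fold (0.623 ± 0.0734 to 24.3 ± 4.33 FPKM), and Pvalb, the calcium buffer parvalbumin, was listed at 0 in all EAT libraries and at 12.1, 10.4 and 9.28 FPKM in IAT. Ckm, Acta1 and Pvalb were under 1 FPKM throughout EAT, so the filter set their direction. The summed muscle list was 18.8 to 21.6 FPKM in EAT and 142 to 171 FPKM in IAT.

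Epididymal epithelium had 3 of 13 listed genes tested, all lower in IAT. Crisp1, a sperm-coating protein of the epididymis, was at 1.35, 2.48 and 2.31 FPKM in EAT and at 0, 0 and 0.0264 FPKM in IAT. The secreted inhibitor Spink8 was at 1.14, 1.05 and 1.79 FPKM in EAT and was listed at 0 in IAT. Crisp1 and Spink8 were under 1 FPKM throughout IAT. They could pass the filter only through EAT, so their direction was set by it. The third, Clu (clusterin), is made by many cells. Of 14 mammary and skin epithelial genes 3 were tested, with 1 higher and 1 lower, or 1 and 2 with TPM. Perp, a desmosomal protein, fell (4.31 ± 0.195 to 0.785 ± 0.110 FPKM), Krt10 rose (0.974 ± 0.0596 to 1.77 ± 0.337 FPKM), and Epcam overlapped between the depots (adjusted p = 0.939).

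Adipocyte genes were higher in IAT in all 18 cases tested, with a median of 0.96. Adipoq (adiponectin) was at 7.46, 7.64 and 6.44 FPKM in EAT and at 23.0, 21.6 and 20.4 FPKM in IAT (difference 1.47 ± 0.0813, adjusted p = 4.17e-07). The median of 20 adipocyte markers in SVCs was 0.517% of the adipocyte level in EAT and 1.22% in IAT. The summed level of these markers was 261 to 277 FPKM in EAT and 585 to 626 FPKM in IAT. The part of muscle, nerve, epididymal and adipocyte RNA in the other results was not tested.

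Transcription factors of body position separated the depots. Of 12 visceral mesenchyme factors tested, 9 were lower in IAT and 2 higher. Wt1 and Bnc1, among the lower, were also counted as mesothelial markers, so the 2 lists are not independent. Tcf21 was at 59.0, 62.1 and 60.2 FPKM in EAT and at 0, 0.0808 and 0.0935 FPKM in IAT (difference -5.86 ± 0.0708, adjusted p = 1.12e-11). Gata6, a zinc finger factor of visceral organs, was at 10.9, 13.2 and 10.4 FPKM in EAT and at 3.58, 3.26 and 3.40 FPKM in IAT (difference -1.5 ± 0.0920, adjusted p = 8.43e-07). Both genes were higher in every EAT library, which the filter set for Tcf21, under 1 FPKM throughout IAT. The homeobox factor Irx2 rose 7.47-fold in IAT, from 0.402 ± 0.0561 FPKM.

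Of 16 limb and trunk factors, 11 were higher in IAT and 2 lower, or 1 lower with quantile scaling or without EAT replicate 3, and 5 lower with no filter. Tbx15, a T-box factor of subcutaneous fat, was at 0.0711, 0.0372 and 0.0628 FPKM in EAT and at 11.9, 11.1 and 12.2 FPKM in IAT (difference 3.59 ± 0.0713, adjusted p = 3.78e-10). Shox2, a limb homeobox factor, rose 7.76-fold to 5.58 ± 0.266 FPKM, En1, a factor of ventral limb ectoderm and dermis, rose 14.6-fold to 2.75 ± 0.126 FPKM, and the T-box factor Tbx5 rose 15.4-fold to 2.08 ± 0.290 FPKM. The IAT libraries stood above all EAT libraries for these 4 genes. Tbx15 was under 1 FPKM throughout EAT, so it could pass the filter only through IAT. Its lack of overlap was set by the filter, as for any gene that low in EAT.

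Hox genes, whose position along each cluster follows the body axis, were 8 higher and 10 lower of 25 tested, but 10 higher and 9 lower with median-of-ratios and 11 and 9 with quantile scaling, 7 and 12 with TPM and 6 and 13 per fibroblast RNA. With a filter on the mean, 5 were higher. Split by paralogue number after the values were seen, all 6 tested genes of groups 9 and 10 were higher in IAT. Of 19 genes of groups 2 to 8, 2 were higher and 10 lower. Hoxa9, Hoxa10 and Hoxc10 were under 1 FPKM throughout EAT (means 0.302, 0.134 and 0.673 FPKM). They could pass the filter only through IAT, so their direction was set by it. Hoxd10 and the listed genes of groups 11 to 13 were not tested. Hoxc10 was at 0.464, 0.770 and 0.786 FPKM in EAT and at 7.87, 8.21 and 7.78 FPKM in IAT (difference 2.42 ± 0.0907, adjusted p = 3.10e-08), and Hoxa10 rose 11.1-fold to 1.49 ± 0.108 FPKM. Hoxa5 was at 16, 16.3 and 15.7 FPKM in EAT and at 8.85, 6.93 and 6.83 FPKM in IAT (difference -1.0 ± 0.0936, adjusted p = 1.64e-05), and Hoxc4 and Hoxc8 fell by 0.93 and 0.91 on the log2 scale.

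**Figure D4:**
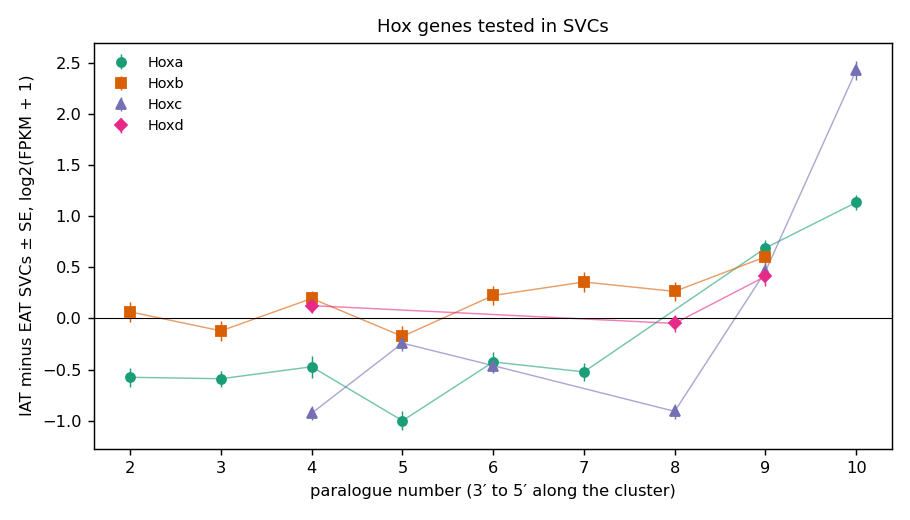
Depot difference (IAT minus EAT, log2(FPKM + 1), ± SE) of the 25 tested Hox genes against paralogue number, with 1 line per cluster. The 6 tested genes of groups 9 and 10 lie above 0, highest at Hoxc10 (2.42). For Hoxa9, Hoxa10 and Hoxc10 the filter set this direction. Genes of the a cluster from 2 to 7 lie below 0.

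Matrix genes changed composition. Of 28 collagen genes tested, 14 were higher and 9 lower in IAT. The fibrillar collagens of loose connective tissue rose together: Col1a1 (250 ± 30.1 to 670.2 ± 27.6 FPKM), Col1a2 (401 ± 6.26 to 880.5 ± 16.2 FPKM) and Col3a1. Col13a1, a membrane collagen of adhesion sites, was at 0.444, 0.397 and 0.406 FPKM in EAT and at 7.43, 6.54 and 6.98 FPKM in IAT (difference 2.49 ± 0.0738, adjusted p = 5.71e-09). Col6a5, a chain of the microfibrillar collagen VI, went the other way, at 64.4, 59.5 and 59.0 FPKM in EAT and at 0.291, 0.325 and 0.360 FPKM in IAT (difference -5.55 ± 0.0701, adjusted p = 1.18e-11). Col6a6 fell too, whereas the collagen VI chains Col6a1, Col6a2 and Col6a3 were called higher in IAT. The basement membrane chains Col4a5 and Col4a6 fell by 1.65 and 2.67 on the log2 scale, while the main chains Col4a1 and Col4a2 were not called. Per fibroblast RNA, 13 collagens were higher and 9 lower, though Col1a1, Col1a2 and Col3a1 are among the markers that set this scaling.

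Elastic fibre, proteoglycan and matricellular genes were mostly lower in IAT, 24 of 39 against 9 higher. Fmod, which encodes the collagen-binding proteoglycan fibromodulin, was at 93.8, 108 and 98.1 FPKM in EAT and at 6.24, 3.98 and 5.55 FPKM in IAT (difference -4.03 ± 0.126, adjusted p = 8.06e-09). Cilp, a matrix protein that binds transforming growth factor beta (TGF-beta), fell 15.1-fold (73.1 ± 3.11 to 4.83 ± 0.310 FPKM). Mfap4, a microfibril-associated protein, had a mean of 23.0 ± 1.09 FPKM in EAT and 2.19 ± 0.338 FPKM in IAT. The matricellular factors Ctgf and Nov fell by 2.13 and 1.83 on the log2 scale.

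Among 32 matrix proteases and inhibitors, 16 were lower and 4 higher; 7 were higher with array weights and 6 with quantile scaling. The 4 were the matrix metalloproteinases Mmp2, Mmp3, Mmp15 and Mmp27. Mmp3 was at 1.92, 2.11 and 2.29 FPKM in EAT and at 178, 173 and 172 FPKM in IAT (difference 5.82 ± 0.0689, adjusted p = 1.12e-11). Mmp2, gelatinase A, was at 126, 138 and 128 FPKM in EAT and at 334, 346 and 328 FPKM in IAT (difference 1.35 ± 0.0699, adjusted p = 2.76e-07). Mmp27 rose 11-fold to 6.03 ± 0.395 FPKM. The aggrecan-cleaving protease Adamts5 fell from 36.1 ± 0.742 to 19.5 ± 0.991 FPKM.

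**Figure D5:**
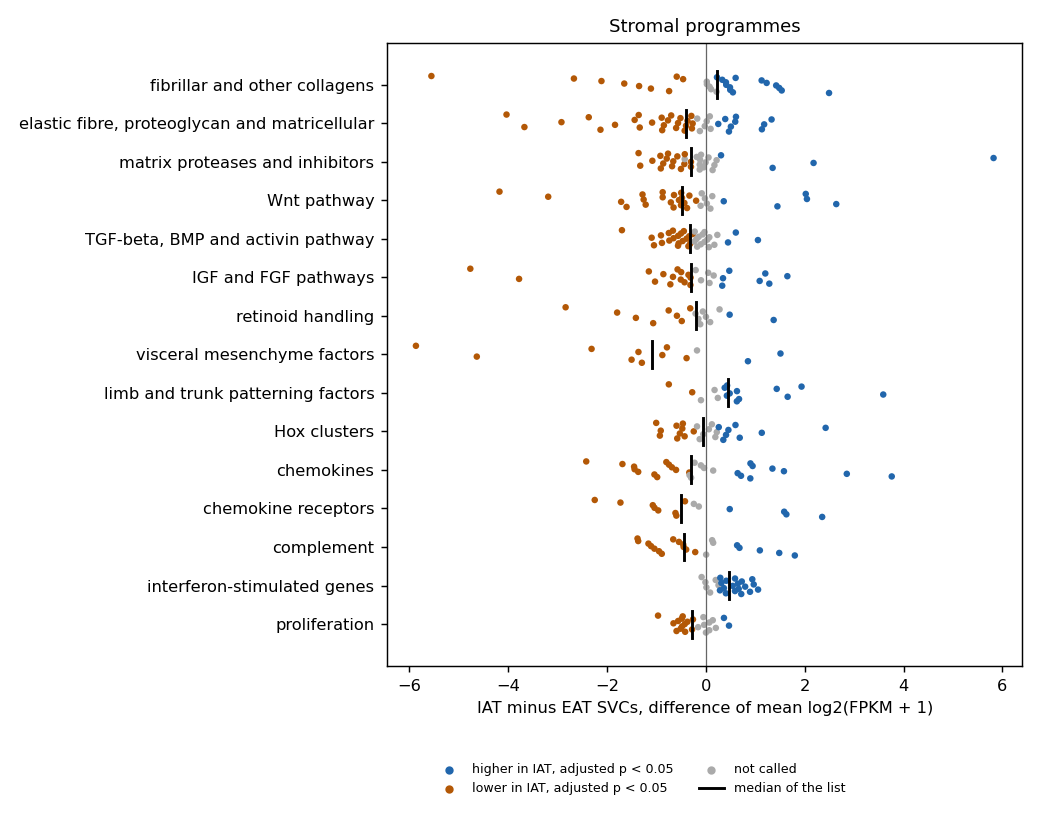
Depot difference (IAT minus EAT, log2(FPKM + 1), horizontal axis) of each tested member (points, coloured by call) of 15 lists of stromal programmes, with the list median (black bar). Collagens spread from -5.55 to 2.49, most Wnt and TGF-beta pathway genes lie left of 0, and interferon-stimulated genes lie mostly right of it.

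In the Wnt pathway, which holds back adipocyte formation, 20 of 31 tested genes were lower and 5 higher, where 30.4% of all tested features were lower. Among ligands, Wnt2b fell 46.9-fold (10.1 ± 1.14 to 0.215 ± 0.0526 FPKM) while Wnt2 rose. Rspo1, the Wnt-enhancing R-spondin that mesothelium also makes, was at 52.2, 59.3 and 56.1 FPKM in EAT and at 2.30, 2.61 and 1.63 FPKM in IAT (difference -4.17 ± 0.112, adjusted p = 3.33e-09). Among secreted antagonists, Sfrp1 (21.9 ± 0.368 to 6.55 ± 0.223 FPKM) and Dkk3 (5.40 ± 0.0583 to 0.956 ± 0.0318 FPKM) fell, whereas Dkk2 rose 10.2-fold to 5.28 ± 0.574 FPKM.

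In the TGF-beta, BMP and activin pathway, 20 of 37 genes were lower and 3 higher. The ligands Inhbb (activin B; 10.2 ± 1.32 to 2.47 ± 0.228 FPKM), Tgfb2 (5.28 ± 0.233 to 2.04 ± 0.210 FPKM), Gdf10 and Bmp2 fell, while the activin antagonist Fst (follistatin) rose from 14.3 ± 1.08 to 30.8 ± 3.55 FPKM, together with Smad7, an inhibitory SMAD, and the receptor Acvr2a. In the insulin-like growth factor (IGF) and fibroblast growth factor (FGF) pathways, 14 of 26 were lower and 7 higher. Igfbp2, an IGF-binding protein, was at 26.0, 33.5 and 27.1 FPKM in EAT and at 0.151, 0.111 and 0.0284 FPKM in IAT (difference -4.76 ± 0.101, adjusted p = 6.07e-10). The adipogenic ligand Fgf1 fell 18.2-fold (50.9 ± 2.46 to 2.79 ± 0.0726 FPKM), and the imprinted growth factor Igf2 rose 3.65-fold (4.21 ± 0.308 to 15.3 ± 0.766 FPKM).

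Retinoid handling had 8 of 17 genes lower and 2 higher. The retinaldehyde dehydrogenases, which make retinoic acid, were lower: Aldh1a1 (74.4 ± 2.77 to 20.8 ± 0.609 FPKM), Aldh1a2 (40.8 ± 0.239 to 4.87 ± 0.416 FPKM), which mesothelium also makes, and Aldh1a3 (35.6 ± 0.537 to 12.8 ± 0.916 FPKM). Rxrg, a retinoid X receptor, rose from 0.172 ± 0.0119 to 2.04 ± 0.168 FPKM. Complement genes were 13 lower and 5 higher of 21, with the anaphylatoxin receptor C3ar1 (35.8 ± 1.98 to 13.2 ± 0.639 FPKM) among the lower. Cfd (adipsin), which rose 3.55-fold, is also an adipocyte gene.

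Chemokine genes were 12 lower and 9 higher of 27. Ccl2, the main monocyte chemoattractant, was at 803, 696 and 855 FPKM in EAT and at 321, 264 and 275 FPKM in IAT (difference -1.45 ± 0.104, adjusted p = 2.56e-06). Ccl3, which attracts monocytes and other leukocytes, fell 5.44-fold (161 ± 17.2 to 29.6 ± 5.67 FPKM). Those that rose include Cxcl14, Cxcl13 and Ccl5 (60.2 ± 5.62 to 155 ± 16.2 FPKM), a T and NK cell product. Of 14 receptors, 8 were lower, among them Ccr1 (14.3 ± 1.37 to 3.63 ± 0.349 FPKM), which binds CCL3, Ccr2 and the scavenger Ackr4 (7.79 ± 0.520 to 0.853 ± 0.0436 FPKM), and 4 were higher, among them Ackr1, the chemokine-binding receptor of venules (15.2 ± 0.129 to 49.5 ± 7.62 FPKM).

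Interleukin 1 decoy receptor Il1r2 was among the largest increases, at 1.5, 2.37 and 1.54 FPKM in EAT and at 71.9, 67.8 and 65.3 FPKM in IAT (difference 4.64 ± 0.112, adjusted p = 1.61e-09). Interferon-stimulated genes were 18 higher and none lower of 24, with a median of 0.48; 14 were higher and 1 lower per fibroblast RNA. The ubiquitin-like protease Usp18 rose 2.32-fold (5.10 ± 0.391 to 11.8 ± 2.29 FPKM) and the transcription factor Irf7 2.04-fold (16.4 ± 0.855 to 33.3 ± 5.77 FPKM), and none of the 24 passed the test against a 2-fold difference. Proliferation genes were 13 lower and 2 higher of 23, with Mki67 (4.80 ± 0.770 to 1.96 ± 0.196 FPKM) among the lower. The summed proliferation list went the other way, at 266 to 295 FPKM in EAT and 318 to 327 FPKM in IAT.

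Genes that respond to tissue dissociation were split between the directions. Of 27 immediate early and stress genes, 12 were higher and 7 lower in IAT, against 16.1% and 30.4% of all tested features. None of the 27 passed the test against a 2-fold difference. Per fibroblast RNA 7 were higher and 10 lower, and without EAT replicate 1, 8 were higher and 6 lower. Fos, an immediate early transcription factor, was at 947, 1074 and 1030.3 FPKM in EAT and at 1632, 1891 and 1705 FPKM in IAT (difference 0.78 ± 0.094, adjusted p = 9.76e-05), while Egr2 fell from 92.0 ± 2.60 to 40.9 ± 1.36 FPKM. The summed list was 11267 to 12751 FPKM in EAT and 12370.2 to 13120.5 FPKM in IAT, with overlap, and its part in the results above was not tested.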

How the data were processed

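RNA-seq was done on 12 libraries, of which the 6 SVC libraries were compared by depot. The authors deposited FPKM values per feature made with TopHat and Cufflinks on GRCm38 (mm10), per the submitters' processing notes; versions, settings and annotation are not given in the sources used here. No counts were used, so no count test was run, and the depth was estimated from the deposited FPKM confidence bounds. Those bounds lay 21.1% to 28.7% away for features at about 1 FPKM and 3.03% to 4.19% away at about 100 FPKM.

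Samples were grouped by their labels. The depot difference was fitted with limma 3.58.1 (R 4.3.3; eBayes with trend, two-sided) on log2(FPKM + 1), over features that reached 1 FPKM in 3 or more of the 6 libraries, with Benjamini-Hochberg adjustment over all 12608, and called at an adjusted p under 0.05. A fit of all 12 libraries gave the difference between the SVC and adipocyte depot differences. The code was tested on simulated data. Tables were made in Python 3.11.15 with pandas 2.3.3 and NumPy 2.4.6, and figures with matplotlib 3.10.9. Features that share a symbol were kept apart by locus, and 7 features lacked a valid estimate in some library.

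The members and the 43 gene lists were chosen with earlier results of these data known. Genes named were the 15 largest differences each way whose groups did not overlap and whose higher group averaged 5 FPKM or more, and up to 5 per list. Cd2, Blnk, Cdh5, Kdr, Col4a1, Col4a2, Mmp15, Acvr2a, Smad7, Gpnmb, Fabp5 and Cd63 were added after their values were seen. So were Tnfrsf4, Icos, Col6a1, Col6a2, Col6a3 and Actn3. Alternatives were other pseudocounts, filters, scalings, variance models, all 12 libraries, a test against a 2-fold difference, a replicate block and the omission of each library in turn. Some members of the lists are counted but not reported by name here.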

Additional observations from a re-analysis of the deposited data

Results flagged for a closer look

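The depot difference (IAT minus EAT, log2(FPKM + 1)) was compared between SVCs and adipocytes by limma's test of the difference between the 2 differences over all 12 libraries, which 32.5% of 13175 features passed. The 8 genes given here, 4 in each direction, had the smallest p among the genes with the largest SVC differences. That choice favours genes whose difference is larger in SVCs, so their direction says nothing about the fractions in general. Other named genes passed too, such as Tcf21 (-4.72, adjusted p = 6.7e-10). For the mesothelial genes, Msln differed by -3.95 more in SVCs (adjusted p = 5.52e-11; -6.43 in SVCs, -2.48 in adipocytes), Upk1b by -3.67 (5.52e-11) and Wt1 by -3.83 (5.52e-11). Col6a5, a collagen VI chain, differed by -4.68 more (8.51e-11). In the other direction, the muscle genes Ckm and Pvalb differed by 3.29 (6.71e-11) and 3.44 (2.25e-09), and for Pvalb the adipocyte difference itself was not called (adjusted p = 0.522). Satb1, a chromatin organizer of T cells, differed by 2.85 (1.22e-08). Mmp3 differed by 3.10 (4.67e-08), and by 1.17 with a pseudocount of 0.1 FPKM, which took Pvalb to 6.45. Mean levels of Mmp3 were 2.11 FPKM in EAT and 174 FPKM in IAT SVCs, and 0.0807 and 6.23 FPKM in EAT and IAT adipocytes. In EAT and IAT adipocytes, Msln had means of 4.65 and 0.0116 FPKM, and Wt1 of 0.755 and 0.00771 FPKM. The log2(FPKM + 1) scale understates the change of low genes. For these 3 genes a larger difference in SVCs therefore need not mean a larger fold change.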

How the results depend on the processing

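With the replicate number as a block, 1978 features were higher and 3715 lower in IAT, against 2035 and 3833 without it. Deviations of same-numbered libraries correlated at -0.0402, 0.113 and -0.124, so the numbers were not taken to pair libraries; under the replicate block none of the 224 genes tested under the naming rule changed call, while T cell genes higher went from 19 to 20. Leaving out 1 library gave 1626 to 1962 higher and 3202 to 3692 lower. Per fibroblast RNA 1242 were higher and 6241 lower, with TPM 1594 and 5321, with median-of-ratios scaling 2704 and 3087, and with quantile scaling 2904 and 2950, which moved the median of all features to -0.21, -0.16, 0.0 and 0.02. At the 2-fold threshold, 191 were higher and 227 lower, and 98 of 224 named genes tested lost their call. Members higher in IAT then numbered 0 of blood endothelium, 0 of interferon-stimulated genes, 6 of adipocyte, 7 of lymph node, 4 of collagen and 1 of elastic fibre and proteoglycan genes. Members lower numbered 0 of resident macrophage, 3 of neutrophil and mast cell, 5 of collagen, 8 of elastic fibre and proteoglycan, 4 of Wnt and 1 of TGF-beta genes. At 1 Hba-a1 locus the direction turned with quantile scaling, to -0.06 (adjusted p = 0.499). The test of SVC against adipocyte differences called 4281 features, 4114 with the block and 3513 to 5300 over all its alternatives. The causes were not tested. Depth limits genes near 1 FPKM, whose bounds are widest.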

Other observations

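The genes below were chosen after their values were seen. The sperm protamines Prm1 and Prm2, made in spermatids, were found in EAT SVCs. Prm1 was at 3.37, 9.11 and 7.36 FPKM in EAT and at 0, 0.191 and 0 FPKM in IAT, and Prm2 was at 8.36, 15 and 11.2 FPKM in EAT and listed at 0 in IAT. Mlana, a melanocyte antigen, was listed at 0 in EAT and was at 6.61, 9.0 and 5.65 FPKM in IAT, while the melanocyte genes Pmel (0.316 ± 0.0877 and 0.321 ± 0.00432 FPKM), Tyrp1 and Dct were low in both depots.

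Plvap, the diaphragm protein of fenestrated and venous endothelium, was at 62.4, 65.1 and 57.0 FPKM in EAT and at 362, 254 and 277 FPKM in IAT, and Sele (E-selectin) at 5.08, 3.87 and 4.11 and at 32.4, 15.6 and 30.3 FPKM. Neither gene overlapped between depots. Penk, the precursor of enkephalin opioid peptides, was 7.93-fold higher in EAT (263 ± 18.8 against 33.1 ± 1.32 FPKM). The acute phase gene Saa3 was 28.8-fold higher in EAT and the lipoxygenase gene Alox15 15.2-fold higher. In IAT, the metalloendopeptidase gene Mme was 9.32-fold and Myoc (myocilin) 12.6-fold higher.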
